A study of Rattus norvegicus with 458 samples.

Results

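miR-124-3p and miR-124-5p are the arms of the miR-124 hairpin, and both were followed by name through a small RNA sequencing atlas of rat tissues. They were 2 of 7534 names in the miRNA table, and the isomiR table listed 1010 sequences under miR-124-3p and 193 under miR-124-5p out of 264294. The tissues came from untreated Sprague Dawley rats aged 12 to 13 weeks, 5 of each sex, with no transgene or agent in any group. Each rat gave 1 library of the cerebellum, cerebrum, hippocampus and brainstem and of the other organs, whereas the dorsal root ganglion (DRG) was sequenced as 10 technical libraries of 2 pools of ganglia, 5 from a male and 5 from a female pool. The labels describe each pool as 5 pooled DRG of that sex. Per the study's methods the DRG RNA was supplied by a company, whereas the other RNA was isolated from the study's own tissues, so the source of the RNA and the tissue cannot be told apart in any comparison with the DRG. All values are counts of reads or counts per 1000000 counts of a library (CPM), and in such whole tissue RNA fewer cells of a type and less RNA per cell cannot be told apart.

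miR-124 is the classic neuronal microRNA. Its hairpin is transcribed from several genes, cut by Drosha and Dicer, and one strand of the resulting duplex is kept by Argonaute as the guide, while the other, the passenger strand, is largely degraded. The 3p arm is the usual guide, and in differentiating neurons it lowers transcripts that belong to other cell types, among them that of the splicing repressor Ptbp1. The seed, bases 2 to 8 from the 5′ end, selects the targets, so isomiRs that start at another base carry another seed. The question put to the data was where each arm was found, in what proportion to the other arm, and with which ends.

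Library totals lay between 376401 and 17725805 counts, and between 946725 and 7506562 in the 47 neural libraries used. The RNA integrity number of the hippocampus libraries used ran from 6.0 to 8.1, with a median of 7.6. The medians were 8.15 in the cerebellum, 8.05 in the cerebrum and 8.0 in the brainstem, and the DRG had no value. The part of RNA integrity in the differences below was not tested. The profiles of 10 of the 215 libraries lay closer to another tissue than to their own label. Of these, 4 duodenum libraries (rats 2, 4, 7 and 11) and 3 hippocampus libraries (rats 2, 6 and 7) were left out here, so that 7 hippocampus libraries remained. The other 3, adrenal of rat 8, ovary of rat 11 and uterus of rat 8, were kept in the tissue values and the fit. Without them the mean of miR-124-3p was 2.17 against 2.43 CPM in the adrenal, 3.26 against 3.38 CPM in the ovary and 3.47 against 3.59 CPM in the uterus. Among the neural libraries kept, the brainstem library of rat 9 held 728 CPM of miR-10a-5p, a microRNA of the HOX clusters and thus of the hindbrain and spinal cord, against 9684 to 15993 CPM in the other 9. The cerebellum library of rat 10 held 6521 CPM of miR-182, a microRNA of sensory neurons, against 119 to 415 CPM in the other 9. The 14 runs of lane 8 of flow cell C2BUMACXX had 47.1% to 60.7% of the counts of the 300 most counted other names starting 1 base upstream of the usual start, against 0.0869% to 1.29% in the 430 other runs. They included a run of the brainstem of rat 6, of the cerebrum of rat 9 and of 1 DRG library of the male pool. Results whose direction or call rests on these libraries or runs are given with and without them.

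miR-124-3p was highest in the cerebellum, where the 10 rats had 10925 to 13081 CPM with a median of 11621. The cerebrum followed with 4676 to 6691 CPM (median 5923, 10 rats) and the hippocampus with 4054 to 6423 CPM (median 4999, 7 rats). The brainstem had 1908 to 3507 CPM, with a median of 2387 over 10 rats. Every cerebellum library lay above every cerebrum library, and every hippocampus library above every brainstem library, while the cerebrum and hippocampus overlapped. The highest brainstem value was that of rat 9, and the other 9 brainstems lay between 1908 and 2957 CPM. The share of all counts was 1.18% in the cerebellum and 0.251% in the brainstem, where miR-124-3p ranked 17th to 23rd and 37th to 54th among the names.

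The DRG libraries had 342 to 444 CPM of miR-124-3p with a median of 382, below every brainstem library. The libraries of the male pool lay between 343 and 444 CPM and those of the female pool between 342 and 385 CPM, so the pools overlapped. In these ganglia the cell bodies of sensory neurons lie among satellite glia and axons.

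The testis came next, with 14.4 to 45.2 CPM in 5 rats and a median of 26.7. These libraries were the shallowest, 376401 to 653651 counts in all, and the testis values rest on 7 to 24 counts a library. In the 17 other tissues the medians lay between 0.881 CPM in the non-glandular stomach and 3.83 CPM in the duodenum, and from the testis downwards every tissue overlapped the next in order. Single libraries stood above the rest of their tissue, and the highest were the soleus of rat 10 with 31.2 CPM (198 counts), the duodenum of rat 8 with 23.8 CPM (48 counts) and the ileum of rat 11 with 18.95 CPM (126 counts). The soleus, a slow postural muscle, ranged from 0 to 31.2 CPM with a median of 1.48. The 161 non-neural libraries together held 2098 counts of miR-124-3p, and 99.8% of all its counts in the libraries kept were from the neural tissues. Weighting the 23 tissues equally by their mean CPM, 45.7% of miR-124-3p was in the cerebellum.

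miR-124-5p followed the same order at a far lower level. The cerebellum had 51.3 to 69.3 CPM (median 58.9), the cerebrum 43.0 to 60.1 CPM (median 49.2), the hippocampus 33.5 to 51.0 CPM (median 46.3) and the brainstem 16.0 to 35.2 CPM (median 22.2). Each region overlapped the next lower in order, unlike the 3p arm, for which the cerebellum stood clear. The DRG libraries had 2.72 to 6.81 CPM with a median of 4.99, which was 3 to 17 counts a library. The testis had 3 counts in 5 libraries. Outside the neural tissues 138 of 161 libraries held no count of miR-124-5p, and in 6 tissues (heart, kidney cortex, kidney medulla, biceps and both stomach parts) all libraries were at 0. A count of 0 over a whole tissue allows a level of up to 0.043 to 0.0605 CPM in these tissues (3 counts of the total, counting error only). That the arms were higher in brain than elsewhere is a description, with no test.

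**Figure D1:**
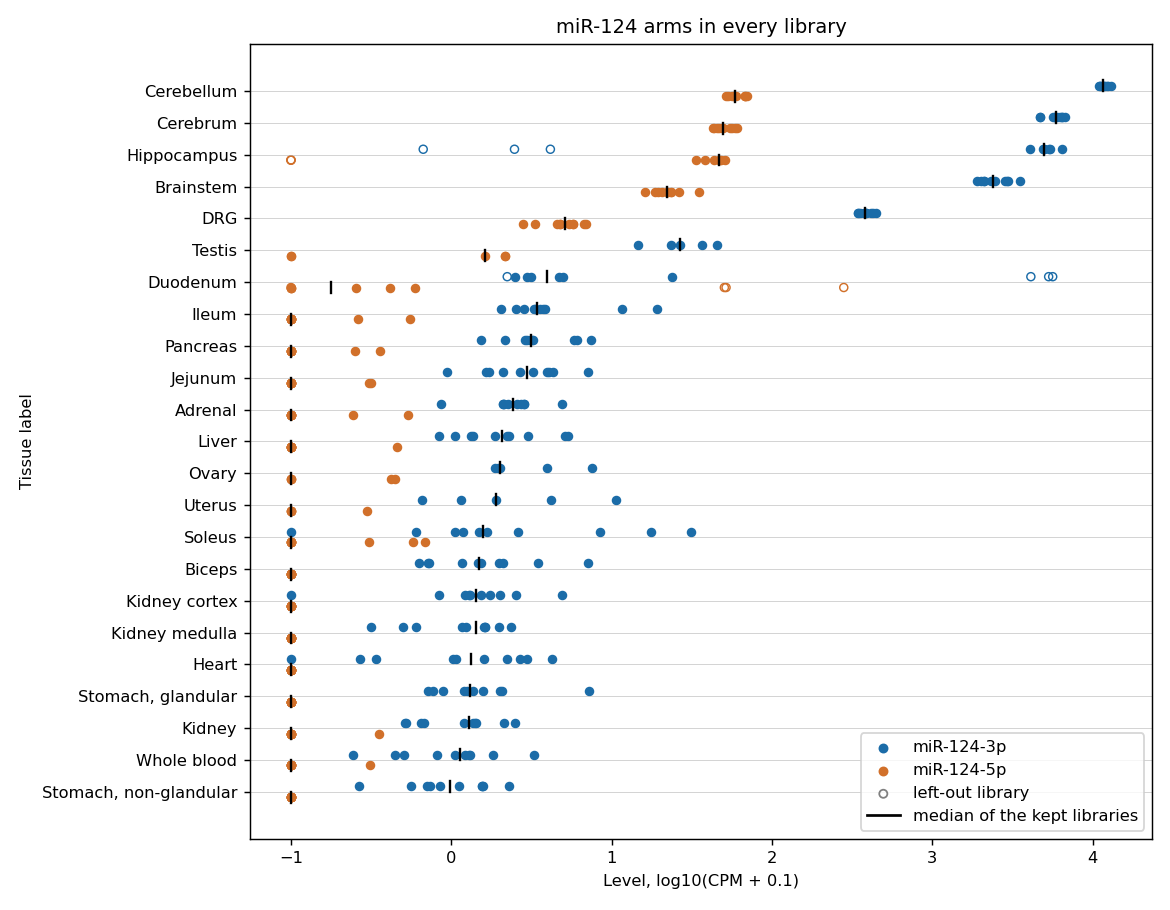
Level of each arm in every library of the 23 tissue labels, as log10 of CPM plus 0.1, so that a count of 0 sits at -1. Bars mark medians of the libraries kept and open points the 7 left out. The cerebellum has medians of 11621 CPM for miR-124-3p and 58.9 CPM for miR-124-5p. The left-out duodenum of rats 2, 4 and 7 sits with the brain regions for miR-124-3p. For miR-124-5p the duodenum of rat 7, at 280 CPM, lies above every brain library.

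The levels were compared between regions with edgeR's quasi-likelihood test over 1593 names, with upper-quartile scaling and Benjamini-Hochberg adjustment, in 1 fit of all 23 tissues. Of the 20 differences between neural tissues (10 for each arm), 13 passed an adjusted p of 0.05. miR-124-3p was higher in the cerebellum than in the cerebrum (log2 fold change 1.55, SE 0.43, adjusted p = 0.00277), than in the hippocampus (1.85, SE 0.49, adjusted p = 0.00202) and than in the brainstem (3.04, SE 0.45, adjusted p = 6.3e-09). Of all names tested, 26.5%, 20.8% and 28.1% were called in these comparisons. On the plain CPM scale the mean of the cerebellum was 2.01 times that of the cerebrum, 2.28 times that of the hippocampus and 4.68 times that of the brainstem. The size of the step thus depended on the scaling, since with library totals alone the median log2 fold change of all names fell from 0 to -0.38 for the cerebellum against the cerebrum and to -0.59 against the brainstem. Under library totals the log2 fold change of miR-124-3p was 1.01 against the cerebrum and 2.23 against the brainstem. The CPM ranges of miR-124-3p did not overlap in any of these comparisons, nor did those of 33.3%, 37.1% and 33.3% of the names with a mean of 1 CPM or more.

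Between the cerebrum and the hippocampus neither arm passed the test. The log2 fold change was 0.30 (SE 0.47, adjusted p = 0.927) for miR-124-3p and 0.32 (SE 0.43, adjusted p = 0.894) for miR-124-5p, where 3.7% of all names were called. Against the brainstem the cerebrum was higher in both arms, by 1.49 (SE 0.43, adjusted p = 0.0086) for miR-124-3p and 1.44 (SE 0.39, adjusted p = 0.00508) for miR-124-5p on the log2 scale, with 14.0% of names called. The hippocampus exceeded the brainstem by 1.19 (SE 0.46, adjusted p = 0.0623) and 1.11 (SE 0.42, adjusted p = 0.0584), which did not pass, with 13.2% called. In these 3 comparisons the CPM ranges did not overlap for 6.24%, 12.5% and 15.5% of names. The shared fit takes its spread from all tissues. A fit of the neural tissues alone called the hippocampus against the brainstem in both arms, with log2 fold changes of 1.01 (adjusted p = 4.46e-10) and 0.93 (adjusted p = 1.97e-08).

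For miR-124-5p the steps into the cerebellum were smaller. It was higher in the cerebellum than in the brainstem (log2 fold change 2.25, SE 0.40, adjusted p = 1.89e-06), and just passed against the hippocampus (1.14, SE 0.44, adjusted p = 0.049), a call lost when any 1 rat was left out (edgeR adjusted p between 0.0523 and 0.134). The call was also lost without the brainstem library of rat 9 alone (1.13, edgeR adjusted p = 0.0518). The same held without the cerebellum library of rat 10 alone (1.12, edgeR adjusted p = 0.0656). Against the cerebrum the log2 fold change of miR-124-5p was 0.82 (SE 0.39, adjusted p = 0.115) and did not pass. That difference passed in the fit of the neural tissues alone (0.97, adjusted p = 3.52e-10) and with DESeq2 (0.38, adjusted p = 0.0156).

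**Figure D2:**
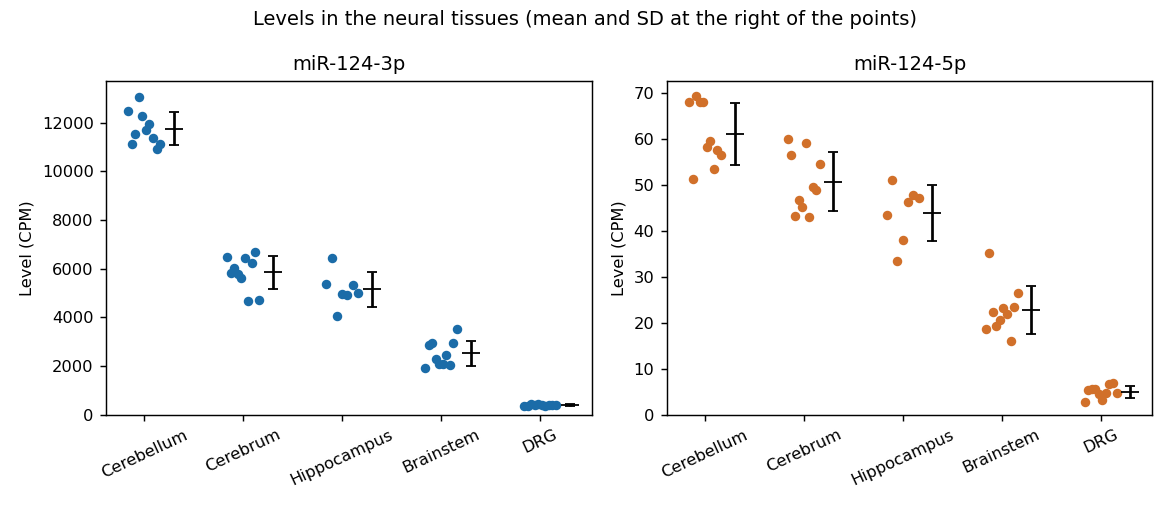
CPM of each arm in the neural tissues, 1 point a library, with the mean and SD beside the points (the DRG points are technical libraries of 2 pools). Cerebellum libraries lie between 10925 and 13081 CPM for miR-124-3p, above all others, whereas for miR-124-5p they lie between 51.3 and 69.3 CPM and overlap the cerebrum.

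For the DRG the 2 pools were the samples. miR-124-3p was lower in the DRG than in the cerebellum (log2 fold change -5.00, SE 1.05, adjusted p = 4.75e-05, 23.5% of names called), the cerebrum (-3.45, SE 0.95, adjusted p = 0.00246, 26.8% called) and the hippocampus (-3.15, SE 0.94, adjusted p = 0.00564, 25.9% called). miR-124-5p was lower by the same comparisons, at -3.70 (adjusted p = 0.000418), -2.89 (adjusted p = 0.00416) and -2.56 (adjusted p = 0.0115). Without either pool the calls against the cerebrum and the hippocampus were lost in both arms (adjusted p between 0.0503 and 0.195), while the log2 fold changes stayed between -2.40 and -3.82. Against the brainstem the DRG was lower by 1.96 in miR-124-3p (-1.96, SE 0.85, adjusted p = 0.0845) and 1.45 in miR-124-5p (-1.45, SE 0.75, adjusted p = 0.162), and neither passed, with 22.2% of names called. Under library totals these became -2.68 (adjusted p = 0.00953) and -2.20 (adjusted p = 0.0112).

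**Figure D3:**
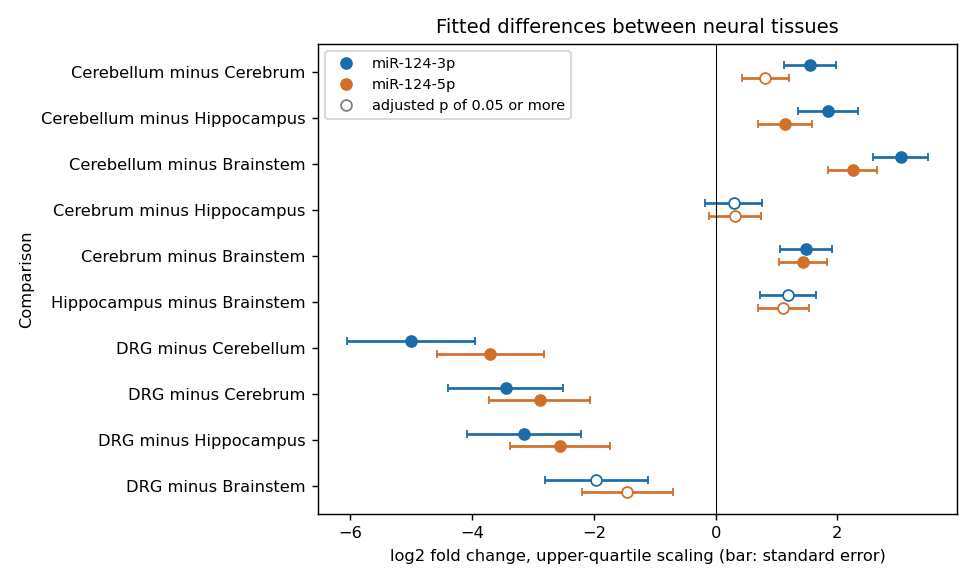
Fitted log2 fold changes of both arms between neural tissues, with standard errors. Filled points passed an adjusted p of 0.05. The cerebellum against brainstem step was 3.04 for miR-124-3p and 2.25 for miR-124-5p, and the largest difference was that of the DRG and the cerebellum, -5.00 for miR-124-3p.

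Female and male rats were compared within each region. None of the 8 differences passed. The log2 fold changes of female over male lay between -0.02 in the cerebellum and 0.35 in the hippocampus for miR-124-3p (SE 0.52 and 0.63), and between -0.11 and 0.37 for miR-124-5p (SE 0.52 and 0.64), each with an adjusted p of 1. Few of the 1230 names passed at all, 0.732% in the cerebellum, 0.0813% each in the cerebrum and hippocampus, and 0.0% in the brainstem.

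The ratio of the arms does not depend on the library total. A read covers a whole mature arm, so no length enters the ratio, but ligation can favour one sequence over another and the absolute ratio carries that preference. The ratio was highest in the cerebellum, with a mean log2 of 3p over 5p counts of 7.60 ± 0.114 (SD, n = 10), that is 194 reads of miR-124-3p for each of miR-124-5p. It was 6.85 ± 0.212 (SD, n = 10) in the cerebrum, 6.88 ± 0.122 (SD, n = 7) in the hippocampus and 6.79 ± 0.243 (SD, n = 10) in the brainstem, or 115, 118 and 111 reads for each. The cerebellum values lay between 7.38 and 7.76 and did not overlap any of the other 3 regions, whose values lay between 6.34 and 7.12.

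The cerebellum was above the cerebrum by 0.75 (permutation p = 2e-05, adjusted p = 0.0003 over the 30 tests of ratio and ends), and above the brainstem by 0.80 (permutation p = 2e-05, adjusted p = 0.0003), in 10 of 10 rats each. It was above the hippocampus by 0.72 in 7 of 7 rats (exact permutation p = 5.14e-05, adjusted p = 0.000309). With each rat as its own control (exact sign flips), the differences from the cerebrum and from the brainstem each had an adjusted p of 0.0195. For the hippocampus the 7 pairs allow an exact p of 0.0156 at the least. The adjusted p was 0.0521 with all runs and 0.0426 without lane 8 (exact sign flips). The difference and its p were the same in both, and the adjustment changed with the other tests. Among the cerebrum, hippocampus and brainstem the 3 differences were between -0.03 and 0.08 and none passed (adjusted p between 0.786 and 0.892, permutation tests). Both arms come from the same library, so no scaling between libraries enters this difference. Without lane 8 the ratio was 6.87 ± 0.176 (SD, n = 10) in the cerebrum and 6.79 ± 0.243 (SD, n = 10) in the brainstem, and the cerebellum differed by 0.73 from the cerebrum (permutation, adjusted p = 0.0002) and by 0.81 from the brainstem (permutation, adjusted p = 0.0002).

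The arms of other miRNAs known from brain are given as a description, with no test. The mean log2 ratio of miR-128-3p over miR-128-1-5p, a passenger arm of 1 of its genes, was 9.98 in the cerebellum and 8.31 in the cerebrum, a wider gap than that of miR-124. The ratio of 3p over 5p was 3.40 and 3.03 for miR-132, 4.60 and 4.09 for miR-153, and -5.15 and -5.31 for miR-9a. It was -9.16 and -8.91 for miR-138-1-3p over miR-138-5p, lower in the cerebellum. In the hippocampus and the brainstem the ratio was 8.30 and 8.45 for miR-128, 3.21 and 3.25 for miR-132, 4.45 and 3.78 for miR-153, -5.24 and -4.68 for miR-9a, and -8.64 and -8.78 for miR-138-1-3p over miR-138-5p. The cerebellum thus had the highest mean of the 4 regions for miR-128, miR-132 and miR-153, whereas for miR-9a the brainstem was highest. These pairs were named after their values were seen.

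In the DRG the ratio was 6.20 in the female and 6.43 in the male pool, below the mean of each brain region, on 53 and 43 counts of miR-124-5p. Without lane 8 the male pool was at 6.36. No test of the ratio was run on the 2 pools. Between the sexes the ratio differed by 0.09 in the cerebellum, -0.13 in the cerebrum, -0.03 in the hippocampus and 0.02 in the brainstem (female minus male). None passed (two-sided exact permutation tests, adjusted p between 0.762 and 0.889 over 4 regions).

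**Figure D4:**
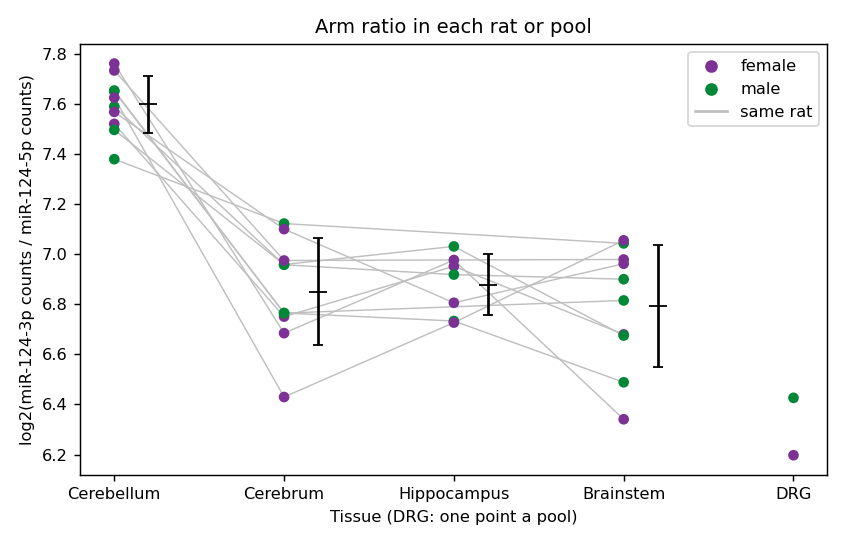
Log2 of miR-124-3p counts over miR-124-5p counts in each rat, coloured by sex and joined by rat, with the mean and SD of each region, and in the 2 DRG pools. All 10 cerebellum values lie at 7.38 or above and all other values at 7.12 or below.

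The isomiRs of both arms were placed by their ends against the most counted sequence of the arm, which took 30.6% of the miR-124-3p and 42.8% of the miR-124-5p counts. Nearly all of the 3p arm started at 2 neighbouring bases. Most counts began at the most counted start, and nearly all others 1 base upstream. Of the counts that began upstream, 99.5% to 100% carried the same base, T, in every brain library once lane 8 was left out. None of the 300 most counted other names shared bases 2 to 8 with either start. The miR-124-5p arm had essentially 1 start, with medians of 97.0% to 98.0% of counts in the brain regions.

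The upstream start of miR-124-3p was most frequent in the cerebellum. Without lane 8, it took 29.5% to 32.3% of the counts in the cerebellum (median 30.8%), 25.7% to 30.1% in the brainstem (median 27.3%), 24.8% to 26.8% in the cerebrum (median 25.9%) and 23.9% to 26.3% in the hippocampus (median 25.9%). In the DRG it took 17.4% in the female and 19.7% in the male pool. The test was made on the share at the most counted start, which without lane 8 was 68.9% ± 0.824 (SD, n = 10) in the cerebellum, 74.0% ± 0.628 (SD, n = 10) in the cerebrum, 74.1% ± 0.792 (SD, n = 7) in the hippocampus and 72.4% ± 1.2 (SD, n = 10) in the brainstem. The cerebellum differed from the cerebrum by -5.15 percentage points (permutation, adjusted p = 0.0002), from the hippocampus by -5.25 (exact permutation, adjusted p = 0.00022) and from the brainstem by -3.48 (permutation, adjusted p = 0.00022), with the lower share in the cerebellum in 10 of 10, 7 of 7 and 10 of 10 rats. The brainstem was also lower than the cerebrum, by 1.67 points in 10 of 10 rats (cerebrum minus brainstem, permutation, adjusted p = 0.00162), and than the hippocampus, by 1.77 points in 7 of 7 rats (hippocampus minus brainstem, exact permutation, adjusted p = 0.00547).

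With all runs, most of these differences no longer passed, and the values of 2 libraries with a lane 8 run were what changed. The brainstem of rat 6 had 35.4% of miR-124-3p counts at the most counted start (95% Wilson interval 34.4% to 36.4%) with its lane 8 run and 71.9% (69.1% to 74.5%) without it. The cerebrum of rat 9 had 37.1% (36.4% to 37.9%) with and 73.3% (71.6% to 75.1%) without. With both runs, only the difference of -5.25 points between the cerebellum and the hippocampus passed (exact permutation, adjusted p = 0.000309), an adjusted p that became 0.0521 with each rat as its own control (exact sign flips), and the cerebellum minus brainstem difference was 0.16 points (permutation, adjusted p = 1). Without lane 8 the sign flip test of the cerebellum against the hippocampus had an adjusted p of 0.0426. The Wilson interval covers counting error only.

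The 3′ end of miR-124-3p was also shorter in the cerebellum. Its mean position, in bases from the end of the most counted sequence, was -0.01 ± 0.0583 (SD, n = 10) in the cerebellum, 0.16 ± 0.102 (SD, n = 10) in the cerebrum, 0.19 ± 0.0521 (SD, n = 7) in the hippocampus and 0.19 ± 0.0444 (SD, n = 10) in the brainstem. The cerebellum differed by -0.17 from the cerebrum (permutation, adjusted p = 0.0033, lower in 9 of 10 rats), by -0.20 from the hippocampus (exact permutation, adjusted p = 0.000514, lower in 7 of 7 rats) and by -0.20 from the brainstem (permutation, adjusted p = 0.000309, lower in 10 of 10 rats). Sequences that ended 1 base short took a median of 23.0% of counts in the cerebellum, 14.9% in the cerebrum, 14.1% in the hippocampus and 13.1% in the brainstem. The exception was rat 9, whose cerebrum had a mean end of -0.10 with and -0.06 without its lane 8 run. Without lane 8 the mean was 0.16 ± 0.0895 (SD, n = 10) in the cerebrum, and the difference from the cerebellum was -0.17 (permutation, adjusted p = 0.000967). With each rat as its own control, the hippocampus comparison had an adjusted p of 0.0521 with all runs and 0.0426 without lane 8 (exact sign flips). In the DRG the mean end was 0.40 in the female and 0.33 in the male pool (also 0.33 without lane 8), beyond all brain libraries.

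Sequences that ended 1 base past the most counted end with T as the last base took a median of 5.43% of miR-124-3p counts in the cerebellum, 5.15% in the cerebrum, 4.91% in the hippocampus and 2.62% in the brainstem. These shares are given as a description. For miR-124-5p no end differed past the threshold between regions. Its mean end was -0.28 in the cerebellum, -0.29 in the cerebrum, -0.30 in the hippocampus and -0.12 in the brainstem, and the adjusted p of the brainstem comparisons lay between 0.0745 and 0.0962 (permutation tests). With each rat as its own control the cerebrum against brainstem difference passed (adjusted p = 0.0352, exact sign flips). Without lane 8 that difference was -0.14 and did not pass with the rat as its own control (exact sign flips, adjusted p = 0.18). Nor did it pass with no block (permutation, adjusted p = 0.176). With all runs the brainstem values rest on 57 to 168 counts of this arm a library. Without lane 8 the brainstem of rat 6 and the cerebrum of rat 9 rest on fewer counts. The mean end in the brainstem of rat 6 was then -0.40, against -0.08 with its lane 8 run.

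**Figure D5:**
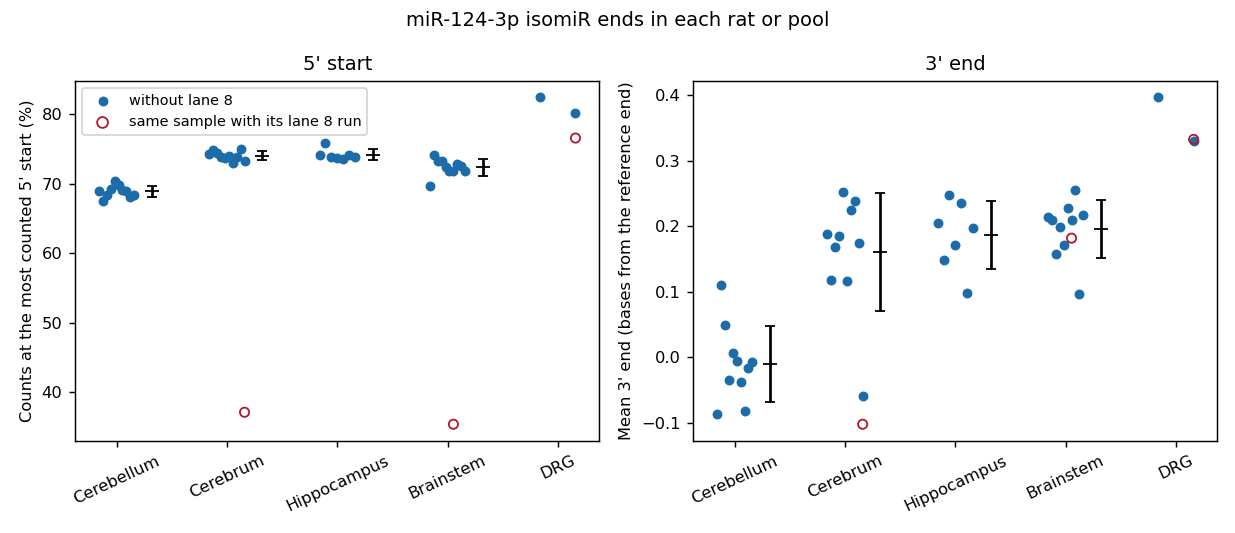
Share of miR-124-3p counts at the most counted 5′ start (percent) and mean 3′ end (bases) in each rat or DRG pool, without lane 8 of flow cell C2BUMACXX, with mean and SD of the regions. Red circles show the same sample with its lane 8 run, at 37.1% in the cerebrum of rat 9 and 35.4% in the brainstem of rat 6, while the cerebellum lies between 67.6% and 70.3%.

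The ends of 20 other miRNAs known from brain were set beside those of miR-124. Between the cerebellum and the cerebrum their median share at the usual start differed by -9.75 to 3.44 percentage points (median -0.03), and their mean 3′ end by -0.19 to 0.21 bases, lower in the cerebellum for 11 and higher for 9. The values of miR-124-3p on the same scale were -4.96 points and -0.19 bases. Its 3′ shift was thus at the edge of this range, next to that of miR-9a-5p (-0.19), and its 5′ shift was inside it.

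The same 20 miRNAs were also compared in level. In the cerebellum against the cerebrum 1 was higher and 10 were lower, with a list median of -0.94 against 0 for all names, where 13.4% and 13.1% of all names were called higher and lower. The exception was miR-129-5p (log2 fold change 0.89, adjusted p = 0.0175), which no longer passed with TMM scaling, library totals or DESeq2. The microRNAs of the activity-regulated miR-132 and miR-212 cluster were lowest, at -3.87 (adjusted p = 2.89e-30) and -4.54 (adjusted p = 1.08e-31), and miR-128-3p, another neuronal microRNA, was lower by 1.39 on the log2 scale (-1.39, adjusted p = 6.26e-07). miR-124-3p, with 1.55, thus went the other way from most of the list. For the cerebrum against the brainstem 11 of 20 were higher and 1 lower (7.85% and 6.15% of all names, list median 0.92), and miR-124-3p with 1.49 and miR-124-5p with 1.44 were among the higher names. In the DRG against the cerebrum 15 of 20 were lower and 0 higher (12.1% and 14.7% of all names, list median -3.11), and miR-124-3p fell with them by 3.45 on the log2 scale (-3.45). miR-138-5p, a microRNA of dendrites, did not pass there (0.20, adjusted p = 0.823). With library totals alone, 113 of 531 calls over all names were higher in the cerebellum than the cerebrum, against 213 of 422 with upper-quartile scaling (143 of 446 with TMM). Library totals gave 170 of 441 against 234 of 427 for the DRG and the cerebrum, and 92 of 261 against 125 of 223 for the cerebrum and the brainstem (81 of 230 with TMM).

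Across the 23 tissue means, the names whose pattern was most like that of miR-124-3p were miR-9a-3p (Pearson r of log2(CPM + 1) = 0.977 over 23 tissues), miR-6540-5p (0.972) and miR-6540-3p (0.964), both listed with a predicted miRNA of chromosome 11, among 782 names with a mean of 10 CPM or more in some tissue. The same 3 names led for miR-124-5p, with 0.984, 0.982 and 0.978, and the arms correlated with each other at 0.988. These values are descriptions, since the tissues share libraries, depth and the contrast of brain with the other organs. The mature miR-9a-3p is shown, from RefSeq (GRCr8), as the closest of the 3 in pattern, with the seed in capitals.

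miR-9a-3p: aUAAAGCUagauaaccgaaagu

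miR-9a-3p, from the other large neural microRNA family, shared only some of the steps of miR-124-3p between the neural tissues. In the edgeR fit its log2 fold change for the cerebellum was 0.58 against the cerebrum (adjusted p = 0.26). Against the brainstem it was 0.92 (adjusted p = 0.0466). For the DRG against the cerebellum it was -4.60 (edgeR, adjusted p = 8e-06). On the plain CPM scale the mean of miR-9a-3p was 908 in the cerebellum, 883 in the cerebrum, 1128 in the hippocampus, 848 in the brainstem and 39.8 in the DRG.

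Lists of microRNAs known from other cell types moved with the regions. The 3 microRNAs listed for oligodendrocytes (miR-219a-2-3p, miR-219a-5p and miR-338-3p) summed to 1776 to 2976 CPM in the cerebellum, 2405 to 5192 in the cerebrum, 2524 to 4365 in the hippocampus, 7660 to 13183 in the brainstem and 4744 to 8601 in the DRG, lowest in the cerebellum, where miR-124-3p was highest, and highest in the brainstem. A sum does not show which member or which cell type it came from, in the DRG as elsewhere. The 2 endothelial arms of miR-126a had medians of 3971 CPM in the cerebellum and 8106 in the brainstem. The 4 blood cell microRNAs had medians between 205 CPM in the cerebellum and 687 in the DRG, and the 3 of striated muscle between 102 in the cerebellum and 933 in the brainstem. The 3 listed for intestinal epithelium had medians between 1049 CPM in the DRG and 4215 in the cerebellum. In the cerebellum of rats 10 and 11, for instance, miR-192-5p held 3860 and 3298 CPM and miR-215 only 39.6 and 41.3. In the hippocampus of these rats miR-215 held 64.2 and 69.2 CPM, so it did not follow the sum there. The 3 HOX cluster microRNAs had a median of 246617 CPM in the DRG and 25272 in the brainstem against 200 to 1209 in the other regions, and the 3 of sensory neurons 74341 in the DRG and 6106 in the brainstem against 61.4 to 202. Of the members of all 7 lists, miR-196c-5p was the 1 at 0 over a whole region, in the cerebellum and in the hippocampus. The part of these cells in the steps of miR-124 was not tested. Without the brainstem of rat 9 the log2 fold change of miR-124-3p was 3.11 for the cerebellum and 1.56 for the cerebrum against the brainstem, and without the cerebellum of rat 10 that of the cerebellum against the cerebrum was 1.54.

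The precursor entries showed which miR-124 gene left reads outside the mature arms. Entries of mir-124-2, which the deposited names place on chromosome 2, held 189 counts in the 208 libraries kept, against 9 for mir-124-1 on chromosome 15 and 3 for mir-124-3 on chromosome 3. mir-124-2 counts were present in all 37 brain libraries, 33 in the cerebellum, 66 in the cerebrum, 23 in the hippocampus and 64 in the brainstem. Against the summed totals of each region this was 0.674, 1.35, 0.676 and 1.38 CPM, with no test, and the cerebellum, highest in the mature arm, was not the highest here. The table lists each mature arm once for all these genes, so mature counts cannot be assigned to any of them.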

How the data were processed

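Small RNA libraries of rat tissues were trimmed by the authors with cutadapt 1.4.1 (per the labels) and counted per miRNA and per isomiR, and the deposited values are raw counts per sequencing run, with names that include predicted miRNAs and precursor entries. Runs were summed per library (444 of 458 runs, since 14 were repeats of a lane), and CPM was computed against the total of all names. Of 10 libraries whose profiles lay closer to another tissue, 7 (duodenum and hippocampus) were left out and 3 (adrenal, ovary and uterus) were kept, so 208 of 215 remained. Depth ran from 376401 to 17725805 counts, which sets the precision of low values, and intervals (95%, Wilson) and floors (3 counts) cover counting error only.

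Levels were tested with the quasi-likelihood test of edgeR 4.0.16 (R 4.3.3) on 200 samples of 23 tissues, with upper-quartile scaling and Benjamini-Hochberg adjustment, and with DESeq2 1.42.0 as an alternative. DRG libraries were summed to 2 pools. Arm ratios and isomiR ends were tested two-sided by permutation (100000 resamples, or exact where a group had under 10 rats), adjusted over 30 tests. IsomiRs were placed within 6 bases and 2 mismatches of the most counted sequence. The same rats gave the tissues, so same-numbered samples share an animal. The main tests did not pair them, and the rat as a block was an alternative. Deviations from the group means had a median correlation of 0.0483 over 51 same-rat pairs and -0.00463 over 459 others. On simulated counts, edgeR recovered 98% of 200 changed names (log2 change 1, dispersion 0.05) among 1593, for the cerebellum against the cerebrum, with 9 false calls. The simulation held the neural samples alone at that 1 dispersion. It thus does not give the power of the fit of 23 tissues, where the arms had SEs of 0.39 to 0.49 between brain regions.

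Named were both arms, their precursor entries, the 3 names most like each arm (log2(CPM + 1) of tissue means), and 20 other brain miRNAs. Members and lists were chosen with earlier results of these data known. Leaving out lane 8, the second flow cell, a library that stood apart or, in the edgeR fit, the 3 kept libraries above was chosen after seeing the data. Alternatives tried were other scaling, no low-count filter, the left-out libraries, all runs, neural tissues alone, the rat as a block, an isomiR minimum of 10 counts and leaving out each rat or pool.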

Additional observations from a re-analysis of the deposited data

Results flagged for a closer look

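In 58 groups of 4 to 10 libraries, the highest or lowest library was tested for its distance from the rest, a test that chance passes in about 1 in 20 groups. That rate does not hold where 1 library has a count and the others are at 0, since such a library passes however low its count. The test picked out 18 values. For miR-124-3p these were the adrenal of rat 8 (4.81 CPM), the kidney cortex of rat 10 (4.82 CPM), the duodenum of rat 8 (23.8 CPM), the biceps of rat 10 (7.02 CPM), the glandular stomach of rat 9 (7.15 CPM) and the whole blood of rat 7 (3.19 CPM), all the highest of their tissue. For miR-124-5p they were the adrenal of rat 8 (0.438 CPM), the ileum of rat 11 (0.451 CPM), the kidney of rat 9 (0.253 CPM), the liver of rat 11 (0.359 CPM), the uterus of rat 7 (0.198 CPM) and the whole blood of rat 7 (0.213 CPM), each on 1 to 3 counts in tissues where most libraries held none. The adrenal library of rat 8 was also among those whose profile lay closer to another tissue.

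Among the ends, the share of miR-124-3p counts at the most counted start was far below the rest in the cerebrum of rat 9 (37.1%) and the brainstem of rat 6 (35.4%), as was that of miR-124-5p (32.7% and 28.4%), and both libraries hold a lane 8 run. The hippocampus of rat 11 was the highest of its region (75.9%), and the mean 3′ end of miR-124-3p in the cerebrum of rat 9 was the lowest (-0.10 bases).

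Libraries outside the comparisons also held miR-124. The left-out duodenum libraries had 5311 CPM (rat 2), 5627 CPM (rat 4) and 4113 CPM (rat 7) of miR-124-3p and 51.6, 50.3 and 280 CPM of miR-124-5p, against 2.39 to 23.8 CPM of miR-124-3p in the 6 duodenum libraries kept. The precursor entries of mir-124-2, which enter no comparison, held 189 counts.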

How the results depend on the processing

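Of 1394 values recomputed under another setting, 1310 kept their direction and side of the threshold (or stayed within the spread), 41 lost and 34 gained a call, 5 moved and 4 reversed. With the 7 left-out libraries, the edgeR log2 fold changes of miR-124-3p no longer passed for the cerebellum (1.55) or the DRG (-3.49) against the cerebrum, the cerebrum against the brainstem (1.49) or the DRG against the hippocampus (-2.67), nor did those of miR-124-5p for the cerebrum against the brainstem (1.44) and the DRG against the cerebrum (-2.92) and hippocampus (-2.10). The hippocampus means became 3608 and 30.7 CPM. Without the 3 kept adrenal, ovary and uterus libraries whose profiles lay closer to another tissue, miR-124-5p passed for the hippocampus against the brainstem (1.11), and no other edgeR call of the arms changed. With the first flow cell alone, the cerebrum against the brainstem (1.22 and 1.15 for 3p and 5p), the DRG against the hippocampus (-2.88 and -2.31) and miR-124-3p in the DRG against the cerebrum (-3.14) no longer passed. With neural tissues alone, 5 more differences passed: DRG against brainstem (-1.89 and -1.39), hippocampus against brainstem (1.01 and 0.93) and miR-124-5p in the cerebellum against the cerebrum (0.97). The DRG against the brainstem also passed with library totals (-2.68 and -2.20), with DESeq2 (-2.57 and -2.06) and, for miR-124-3p, with no filter (-1.96). DESeq2 called miR-124-5p for the cerebellum against the cerebrum (0.38) and the hippocampus against the brainstem (1.08), and no filter called miR-124-3p for the latter (1.19). miR-124-5p in the cerebellum against the hippocampus was lost with TMM (0.81), library totals (0.47), no filter (1.14) and all runs (1.15). It was also lost without the brainstem of rat 9 (1.13) or the cerebellum of rat 10 (1.12). For that arm, no filter also lost the cerebrum against the brainstem (1.44) and the DRG against the hippocampus (-2.56). Leaving out 1 rat or pool gave 1.03 to 1.18 for miR-124-5p in the cerebellum against the hippocampus, 1.03 to 1.17 for the hippocampus against the brainstem (called without rat 11), and for the DRG -3.82 to -3.37 and -3.38 to -2.78 against the cerebrum and -3.47 to -3.06 and -2.997 to -2.40 against the hippocampus (miR-124-3p without the male pool -3.44 and -3.09); a DRG left with 1 pool is assumed to vary like the other groups.

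With all runs, the replicate block by rat lost the cerebellum against hippocampus calls of the arm ratio (0.72), the 3p start (-5.22 points) and the 3p mean end (-0.19 bases), whose 7 pairs limit the exact p. It gained that of the 5p mean end for the cerebrum against the brainstem (-0.18), and changed no other call. Without lane 8 the block kept those calls against the hippocampus (exact sign flips, adjusted p = 0.0426 each). The 5p mean end then did not pass with the block (exact sign flips, adjusted p = 0.18). Without lane 8, the 3p start differences became -5.15 (cerebellum minus cerebrum), -3.48 (cerebellum minus brainstem, reversed), 1.67 (cerebrum minus brainstem) and 1.77 (hippocampus minus brainstem) points, the block giving -5.15, -3.48, 1.67 and 1.88, and the first flow cell alone gave -5.18 and -4.18 for the first pair. Leaving out 1 rat moved them between -5.17 and -0.894 (called without rat 9), -3.56 and 0.919 (reversed and called without rat 6), -2.29 and 5.74 (called without rat 9), and 1.71 and 5.98 (called without rat 6). For miR-124-5p, isomiRs of at least 10 counts gave calls for the start (1.06 points, cerebellum minus hippocampus) and the mean end against the brainstem (-0.16 for the cerebellum, -0.18 for the cerebrum), and leaving out 1 rat gave 0.71 to 1.16 points and -0.20 to -0.12, -0.20 to -0.13 and -0.22 to -0.15 bases (hippocampus last), called without rat 3 and, for the cerebellum, also without rat 2. Except where stated, the cause was not tested. The arm ratio with the left-out hippocampus libraries could not be computed, since they hold no miR-124-5p count, and depth limits that arm outside the brain.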
